A study of Mus musculus with 9 samples.

Results

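The hippocampal transcriptome of MRL/lpr mice labelled as given mesenchymal stem cells (MRL/lpr+MSC) was compared with that of untreated MRL/mpj mice by RNA sequencing. The comparison holds 6 of the 9 libraries of the series, 3 labelled MRL/lpr+MSC and 3 labelled as wild type, which are the MRL/mpj controls, and it covers every gene that passed a filter on low counts, 16196 genes in all. The other 3 libraries are labelled MRL/lpr, with no mention of cells, and are used here only beside the comparison. All mice were 6 weeks old, and the RNA of the hippocampus was taken through poly(A) selection. In MRL/lpr mice Fas is disrupted by the lpr mutation, while MRL/mpj mice are the matched strain with an intact gene. By the strain names in the study's methods the MRL background is shared by all groups. The mutation and the cell treatment differ together between the 2 groups compared. Whether the groups also differ at other loci was not tested, and such differences could not be told apart from the mutation here. What the mutation and the treatment each contribute to a difference between them cannot be told apart from these 6 libraries alone. The labels name C57BL/6 as the strain of every library, where the study's methods name MRL/MpJ and its lpr congenic. The donor of the cells, their route, dose and timing are not given in the sources used here. The labels number the libraries of a group 1 to 3, and p-values measure the spread between these libraries.

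Fas is a death receptor through which activated lymphocytes are removed, and mice with the lpr mutation accumulate lymphocytes, make autoantibodies and develop a disease like human lupus. Type I and type II interferons act through STAT and IRF transcription factors to switch on antiviral genes, guanylate-binding proteins, immunity-related GTPases and the machinery that loads peptides on MHC class I, and this response is well known in lupus. In the brain, microglia and endothelium respond readily to circulating interferon. Mesenchymal stem cells are stromal cells that are given for their effects on immune cells.

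A doubt about the labels comes before the results. The counts were compared with the first 1999 genes of the expression table that was published with the study, which names its columns MRL/mpj and MRL/lpr. For each of the 3 columns headed MRL/lpr, 100% of 1887 to 1932 genes were a constant multiple, within 0.1%, of the counts in 1 of the libraries labelled MRL/lpr+MSC. No library labelled MRL/lpr passed 0.723%. The columns headed MRL/mpj matched the MRL/mpj libraries. MRL/lpr+MSC and MRL/lpr therefore stand below for the libraries that carry these labels. Which of these mice were given cells could not be settled from the sources used here.

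Between 19475804 and 24114666 reads were counted in the MRL/mpj libraries and between 20014975 and 21914100 in the MRL/lpr+MSC libraries. Where a library has a count of 0, the limit at this depth is 3 counts, which covers counting error only. No libraries of a group were alike within sampling noise (chi-square per gene of at least 10.7). Markers of the tissue were present in every library, such as Prox1 of dentate granule neurons at 102 to 223 CPM (the count divided by the scaled library size) and Wfs1 of CA1 neurons at 151 to 298 CPM. MRL/lpr+MSC replicate 1 stood apart. Its median absolute difference from the other 2 MRL/lpr+MSC libraries was 0.19 on the log2 scale, which is within the range of 0.18 to 0.22 seen between the groups, whereas replicates 2 and 3 differed by 0.13 and the MRL/mpj libraries by 0.12 to 0.13. Ttr, the transthyretin of the choroid plexus, stood at 67.2, 4427 and 447 CPM in the MRL/lpr+MSC libraries and at 122, 445 and 624 CPM in the MRL/mpj libraries. In MRL/mpj replicate 2, H2-D1 stood at 4.21 CPM against 112 and 98.9 CPM in replicates 1 and 3, and the liver gene Alb reached 234 CPM in MRL/mpj replicate 3 and 33.4 CPM in MRL/lpr+MSC replicate 3 against at most 7.4 CPM in the other 4.

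**Figure D1:**
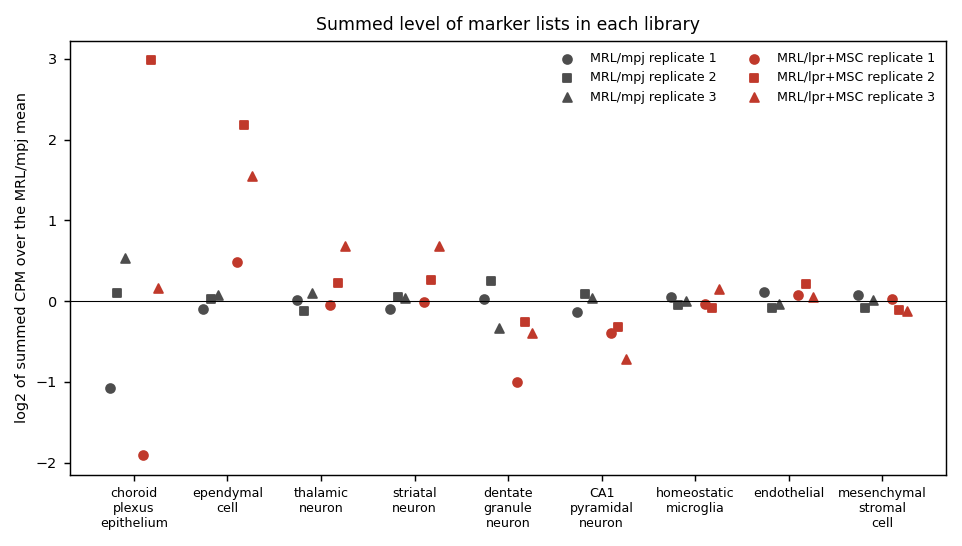
Summed CPM of 9 marker lists in each of the 6 libraries, as the log2 ratio to the mean of the 3 MRL/mpj libraries, with symbols for replicates. The choroid plexus list spans the widest range within both groups, the ependymal list lies above the MRL/mpj mean in all 3 MRL/lpr+MSC libraries, and the CA1 and dentate lists lie below it in all 3.

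Differential expression was called at an adjusted p under 0.05 and a change of at least 1.5-fold (limma voom with Benjamini-Hochberg adjustment over all genes tested). Of the 16196 genes, 556 were called, or 3.43%, with 313 higher (1.93%) and 243 lower (1.5%) in MRL/lpr+MSC hippocampus. A log2 fold change of at least 1.5 was reached by 206 of them. The groups did not overlap for any of the 556, while among all genes tested 15.2% lay wholly above and 14.4% wholly below the MRL/mpj libraries. The median log2 fold change of all genes tested was 0.01. Calls depended on single libraries: 142 of the 556 were also called when each of the 6 libraries was left out in turn, 63 higher and 79 lower. The count of calls fell to 193 without MRL/mpj replicate 1, 201 without MRL/mpj replicate 2, 206 without MRL/mpj replicate 3, 359 without MRL/lpr+MSC replicate 2 and 276 without MRL/lpr+MSC replicate 3, and it rose to 1514 without MRL/lpr+MSC replicate 1. A call that stood under all 6 omissions is named below as stable to the omission of any library.

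**Figure D2:**
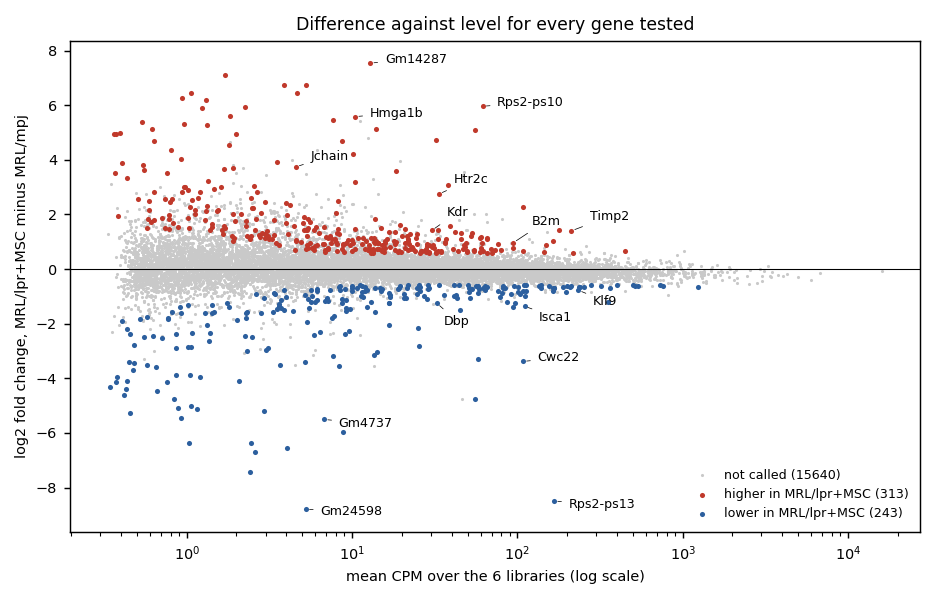
Log2 fold change between the MRL/lpr+MSC and MRL/mpj libraries for the 16196 genes tested, against their mean CPM on a log scale, with 313 genes called higher in red and 243 called lower in blue. The changes beyond a log2 of 4 are mostly in genes under 10 CPM, with Rps2-ps10 and Rps2-ps13 among the exceptions.

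A set of interferon-inducible genes was higher in MRL/lpr+MSC than in MRL/mpj hippocampus. Of 35 interferon-stimulated genes, 29 were tested, and 5 were called higher and 0 lower, or 17.2% against the 3.43% of all genes. Their median log2 fold change was 0.54 against 0.01 for all genes, and 24 of the 29 had a positive value. The called members were Ifit1, Irf7, Oas1a, Ifi44 and Cmpk2, which rose 1.59- to 4.5-fold. The interferon-inducible GTPases, which attack the vacuoles of intracellular pathogens, had 6 called members among 14 tested of 16, again 0 lower, with a median of 1.52. Of 18 genes of MHC class I and peptide loading, 16 were tested and 5 were called higher, with 0 lower and a median of 1.00.

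The 5 promoters shown were picked among called members that carry the interferon-stimulated response element, so they are examples and not a test. The search for the element used no expression value, but the lists searched were chosen as interferon-inducible genes. The element was searched as GAAANNGAAA, or TTTCNNTTTC on the other strand, from 250 bases before to 50 after each start in RefSeq (GRCm38.p6). It was found in 15 of the 24 interferon-stimulated genes with a promoter there, in 9 of 10 GTPases and in 4 of 15 class I genes, against 3.99% of all 27025 genes. Among called members it was found for Ifit1, Oas1a, Gbp3, Irgm1, Tgtp1, Tgtp2, B2m and H2-T23, and these letters were not in the window for Irf7, Ifi44, Cmpk2, Ifi47, H2-Q4, Tap1 and Psmb9. The 5 promoters below run 5′ to 3′ on the strand of the gene, with the matches in capitals.
Ifit1, chr19:34640639-34640938, plus strand: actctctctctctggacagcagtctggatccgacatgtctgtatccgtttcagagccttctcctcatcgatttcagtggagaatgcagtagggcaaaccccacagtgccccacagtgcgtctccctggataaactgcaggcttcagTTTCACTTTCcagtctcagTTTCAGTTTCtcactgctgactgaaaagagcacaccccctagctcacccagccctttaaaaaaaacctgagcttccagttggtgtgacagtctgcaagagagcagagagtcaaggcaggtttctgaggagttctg
Oas1a, chr5:120907476-120907775, minus strand: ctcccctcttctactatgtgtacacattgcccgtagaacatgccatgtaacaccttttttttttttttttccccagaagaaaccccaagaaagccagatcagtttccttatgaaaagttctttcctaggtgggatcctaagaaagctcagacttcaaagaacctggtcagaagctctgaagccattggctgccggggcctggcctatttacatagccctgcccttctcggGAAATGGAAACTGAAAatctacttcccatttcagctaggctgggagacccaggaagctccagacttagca
Gbp3, chr3:142559794-142560093, plus strand: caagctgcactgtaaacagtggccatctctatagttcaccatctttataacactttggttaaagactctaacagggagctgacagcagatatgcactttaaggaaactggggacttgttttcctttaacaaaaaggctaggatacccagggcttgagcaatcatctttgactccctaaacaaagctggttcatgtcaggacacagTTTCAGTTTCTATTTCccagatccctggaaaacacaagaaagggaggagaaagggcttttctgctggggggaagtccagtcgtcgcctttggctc
Irgm1, chr11:48871371-48871670, minus strand: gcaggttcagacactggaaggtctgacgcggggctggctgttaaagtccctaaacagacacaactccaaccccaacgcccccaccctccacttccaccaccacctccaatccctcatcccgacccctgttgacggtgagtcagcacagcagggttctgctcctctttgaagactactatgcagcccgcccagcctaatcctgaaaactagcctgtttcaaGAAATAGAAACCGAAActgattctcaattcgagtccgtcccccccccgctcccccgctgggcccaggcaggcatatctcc
B2m, chr2:122147437-122147736, plus strand: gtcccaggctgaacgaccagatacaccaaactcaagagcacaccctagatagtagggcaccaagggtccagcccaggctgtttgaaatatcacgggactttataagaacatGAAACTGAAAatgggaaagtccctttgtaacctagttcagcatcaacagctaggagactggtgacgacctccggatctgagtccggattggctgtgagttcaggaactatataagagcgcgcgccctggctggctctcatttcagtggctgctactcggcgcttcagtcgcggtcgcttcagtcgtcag
Matches began 104 and 85 bases before the start of Ifit1, 20 and 14 bases before that of Oas1a, 45 and 39 before that of Gbp3, 30 and 24 before that of Irgm1, and 139 before that of B2m. In Oas1a, Gbp3 and Irgm1 both matches overlap each other.

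Ifit1, which binds viral RNA without the host cap, stood at 1.05, 0.903 and 0.654 CPM in the MRL/mpj libraries and at 2.54, 1.95 and 2.70 CPM in the MRL/lpr+MSC libraries. Irf7, the factor that amplifies the production of type I interferon, stood at 1.40, 1.25 and 1.09 CPM and at 2.44, 2.46 and 2.74 CPM in the same order. The groups did not overlap for either gene, and the log2 fold changes were 1.45 (SE 0.28, adjusted p = 0.0336) and 1.03 (SE 0.21, adjusted p = 0.0403). Oas1a, a synthase of the 2-5A that activates RNase L, was near the limit of counting in MRL/mpj hippocampus, at 0.250, 0.258 and 0.109 CPM, and stood at 0.882, 0.930 and 1.11 CPM in MRL/lpr+MSC hippocampus. Cmpk2, a mitochondrial nucleotide kinase, had the smallest rise of the 5, from 29.5, 23.9 and 27.3 CPM to 44.6, 38.5 and 44.4 CPM (log2 fold change 0.67, SE 0.11, adjusted p = 0.0197).

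Among the GTPases, Gbp4, a guanylate-binding protein, stood at 0.849, 1.81 and 0.872 CPM in MRL/mpj and at 3.74, 3.86 and 4.6 CPM in MRL/lpr+MSC libraries, a log2 fold change of 1.83 (SE 0.30, adjusted p = 0.0234). Irgm1, which regulates the other immunity-related GTPases, went from 6.05, 5.08 and 5.61 CPM to 9.24, 9.43 and 13.1 CPM (log2 fold change 0.93, adjusted p = 0.0404). Tgtp1, Tgtp2 and Ifi47 lie with Irgm1 in the window of 2 Mb on chromosome 11 from 48000001 to 50000000, where 5 of 19 genes tested were called, all higher. Tgtp1 and Tgtp2 are near-identical copies, so the split of reads between them is uncertain; both were below 0.6 CPM in every MRL/mpj library and between 1.44 and 2.51 CPM in every MRL/lpr+MSC library. Gbp3, with a log2 fold change of 1.19 (adjusted p = 0.0237), and Ifi47, with 2.91 (adjusted p = 0.0419), completed the called members.

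For class I, B2m, the light chain of every class I molecule, stood at 69.7, 56.9 and 64.0 CPM in MRL/mpj and at 90.6, 138 and 149 CPM in MRL/lpr+MSC libraries (log2 fold change 0.96, 95% CI 0.51 to 1.42, adjusted p = 0.0411). Tap1, a subunit of the transporter that carries peptides into the endoplasmic reticulum, went from 3.60, 2.45 and 3.05 CPM to 5.50, 5.90 and 6.90 CPM (log2 fold change 1.04, adjusted p = 0.0334). Psmb9, a subunit of the immunoproteasome, had a log2 fold change of 1.1 and an adjusted p of 0.032. The heavy chain gene H2-T23 had one of 2.49 (adjusted p = 0.0259) and H2-Q4 one of 1.84 (adjusted p = 0.0234). Reads of class I heavy chain genes can be shared between copies and alleles, and the classical genes H2-K1 and H2-D1 overlapped between the groups, with MRL/mpj replicate 2 the lowest of the 6 for both. H2-K1 stood at 19.99, 1.94 and 12.8 CPM in MRL/mpj and at 16.9, 27.3 and 30.1 CPM in MRL/lpr+MSC libraries (log2 fold change 1.72, adjusted p = 0.243), and H2-D1 at 4.93, 10.9 and 12.7 CPM in the latter (log2 fold change -1.90, adjusted p = 0.563).

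The calls of these 3 lists depended on which libraries entered the fit. Against 5, 6 and 5 members called higher with all libraries, the lists held 8, 12 and 6 such members without MRL/lpr+MSC replicate 1, newly called ones included, and each of the earlier calls was among them. They held 2, 3 and 0 without MRL/lpr+MSC replicate 2, 0, 1 and 1 without MRL/lpr+MSC replicate 3, and 0, 0 and 0 without MRL/mpj replicate 1 or MRL/mpj replicate 3. Without MRL/mpj replicate 2 they held 1, 1 and 1, where 0 of the 5 interferon-stimulated calls, Gbp4 among the GTPases and H2-T23 of class I were called again, and 1 class I member was then called lower. The log2 fold change of Ifi47 was 2.27 without MRL/mpj replicate 2, and that of Ccr1 2.37 without MRL/mpj replicate 3. The medians kept their sign under each omission, between 0.50 and 0.62, 1.38 and 2.13, and 0.71 and 1.13.

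**Figure D3:**
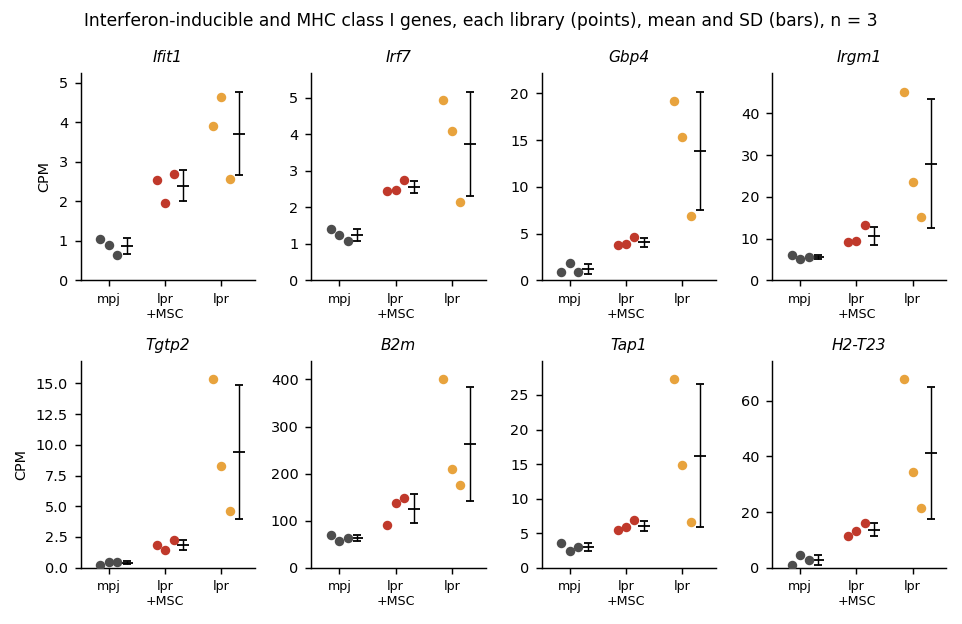
CPM of 8 interferon-inducible and MHC class I genes in each library of the MRL/mpj, MRL/lpr+MSC and MRL/lpr groups (points), with the mean and SD of the 3 libraries beside them. The 8 genes were taken from those called higher, and none of the 556 called genes overlapped between the groups. That every MRL/lpr+MSC library lies above every MRL/mpj library therefore follows from this choice. Of all genes tested, 15.2% lay wholly above. The MRL/lpr libraries are spread more widely, such as 176 to 400 CPM for B2m.

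The libraries labelled MRL/lpr were tested against the same MRL/mpj libraries. The same lists there had medians of 1.20 (9 called higher), 3.54 (5 called higher) and 2.10 (4 called higher), with 0 lower in each. Of all genes, 5.79% were called in that comparison, 3.41% higher and 2.38% lower. In the direct test of MRL/lpr+MSC against MRL/lpr, 0 of 16758 genes were called by limma voom, with 647 at an unadjusted p under 0.05 and a lowest adjusted p of 0.921. The log2 fold change in that test was below 0 for 29 of 29 interferon-stimulated genes, 14 of 14 GTPases and 16 of 16 class I genes. This direction is that of the labels, which are in doubt. The medians of these lists were -0.60, -1.69 and -1.12, and 7, 13 and 9 members had an unadjusted p under 0.05. For B2m the log2 fold change of MRL/lpr+MSC against MRL/lpr was -0.99 (adjusted p = 0.921), with MRL/lpr libraries at 400, 210 and 176 CPM.

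MHC class II genes, which are restricted to antigen-presenting cells, had 0 called members among 9 tested of 12, with a median log2 fold change of 0.90. Cd74, the invariant chain, stood at 3.15, 2.84 and 1.04 CPM in MRL/mpj and at 2.70, 19.1 and 21.99 CPM in MRL/lpr+MSC libraries, so that MRL/lpr+MSC replicate 1 lay within the control range and the other 2 above it (log2 fold change 2.34, adjusted p = 0.302). H2-Aa was 0.350, 0.215 and 0.218 CPM in the former and 1.14, 5.30 and 4.78 CPM in the latter (adjusted p = 0.0857). Without MRL/lpr+MSC replicate 1, 4 members of the list were called higher.

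A transcript of plasma cells was higher, and those of T cells were hardly detected. Jchain, which joins the subunits of polymeric immunoglobulin, stood at 0.849, 0.344 and 0.708 CPM in MRL/mpj and at 4.57, 11.99 and 9.03 CPM in MRL/lpr+MSC libraries (log2 fold change 3.74, SE 0.66, adjusted p = 0.0294). The immunoglobulin kappa constant gene Igkc stood at 1.60, 0.387 and 0.708 CPM and at 11.1, 41.3 and 19.8 CPM, which did not overlap and did not pass the threshold (log2 fold change 4.78, SE 1.13, adjusted p = 0.0644). Jchain was the 1 called member of 7 tested of 18 B cell and plasma cell genes. The call of Jchain was lost without any 1 of the MRL/mpj libraries and without MRL/lpr+MSC replicate 3. Of 20 T cell genes, 3 passed the filter and 0 were called, and the summed level of the list was 6.24 to 7.41 CPM in MRL/mpj, 8.13 to 13.8 CPM in MRL/lpr+MSC and 15.9 to 54.8 CPM in MRL/lpr libraries. Fewer cells of a type and less RNA per cell cannot be told apart in bulk tissue.

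Of the cytokine and receptor genes tested 12.5% were called, against 3.43% of all genes. Of 27 cytokines and receptors 24 were tested, and Tnfsf10 (TRAIL, a ligand of death receptors), Tgfbr2 (the type II receptor of TGF-beta) and Kitl (the ligand of the receptor Kit) were called higher by 1.67, 0.59 and 0.84 on the log2 scale (adjusted p = 0.0366, 0.0445 and 0.0358), where the list median was 0.12. These 3 calls became 0 without any 1 of the MRL/mpj libraries and without MRL/lpr+MSC replicate 3. The longer list of cytokine-receptor interaction that the study drew from its own comparison had 6 called members among 26 tested of 45, or 23.1%. These were Ccr1, Kdr, Bmp2, Tnfsf10, Tgfbr2 and Kitl, all higher. That list was chosen on the MRL/mpj libraries used here and on columns that match the MRL/lpr+MSC libraries, so it is not independent evidence of its direction. Ccr1, a chemokine receptor of myeloid cells, stood at 0.250, 0.387 and 0.0545 CPM in MRL/mpj and at 1.82, 1.72 and 1.64 CPM in MRL/lpr+MSC libraries. Of 14 death receptor genes tested of 16, Casp9, the initiator caspase of the mitochondrial pathway, and Bcl2, which restrains that pathway, were called higher, or 14.3%. Casp9 stood at 23.98, 23.1 and 25.9 CPM in MRL/mpj and at 53.4, 46.2 and 45.6 CPM in MRL/lpr+MSC libraries (log2 fold change 1.00, SE 0.09, adjusted p = 0.00295), and its call was stable to the omission of any library.

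Fas itself (chr19:34290666-34327772, plus strand) stood at 1.999, 1.85 and 1.63 CPM in MRL/mpj and at 0.986, 1.12 and 1.81 CPM in MRL/lpr+MSC libraries. The groups overlapped, and the log2 fold change of -0.51 (95% CI -1.17 to 0.15) did not pass the threshold (adjusted p = 0.332). A gene count does not show the lpr insertion itself, and these low, overlapping counts neither check nor contradict the labels. Of 64 genes tested within 5 Mb of the start of Fas, 2 were called higher, Lipa and Ifit1, or 3.12%. Lipa, the lysosomal acid lipase, rose from 17.5, 21.8 and 19.7 CPM to 38.1, 39.3 and 34.3 CPM (log2 fold change 0.92, adjusted p = 0.0061), and its call was stable to the omission of any library.

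Several genes that glucocorticoids induce were lower in MRL/lpr+MSC hippocampus. The glucocorticoid receptor enters the nucleus on binding corticosterone and switches on genes that limit inflammation and adjust metabolism. Of 19 genes on this list, all were tested, 0 were called higher and 6 lower (Tsc22d3, Zbtb16, Errfi1, Mt2, Klf9 and Fkbp5), or 31.6%, and 18 had a negative log2 fold change with a median of -0.65. The exception was Nr3c1, the receptor itself, at 0.37 (adjusted p = 0.0935). Tsc22d3, the leucine zipper protein GILZ, stood at 139, 96.5 and 128 CPM in MRL/mpj and at 42.9, 51.2 and 59.9 CPM in MRL/lpr+MSC libraries (log2 fold change -1.23, SE 0.17, adjusted p = 0.0129). Klf9, a Krüppel-like factor of neurons, stood at 303, 289 and 296 CPM and at 172, 186 and 160 CPM (log2 fold change -0.78, SE 0.08, adjusted p = 0.00364), and it was the member whose call was stable to the omission of any library. Fkbp5, the co-chaperone that dampens the receptor, fell by 0.69 on the log2 scale (adjusted p = 0.0164), Zbtb16, a zinc finger factor, by 0.87 (adjusted p = 0.0258), Mt2, a metallothionein, by 0.79 (adjusted p = 0.029) and Errfi1, an inhibitor of the EGF receptor, by 0.82 (adjusted p = 0.0479). Of these 6 calls, 1 was made again without MRL/mpj replicate 1 or 3, 3 without MRL/mpj replicate 2, 2 without MRL/lpr+MSC replicate 2, 4 without MRL/lpr+MSC replicate 3 and 5 without MRL/lpr+MSC replicate 1.

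Some clock genes of the E-box phase were lower as well. The proteins CLOCK and BMAL1 bind E-boxes and drive Per, Dbp, Ciart, Bhlhe40 and Nr1d1, whose products feed back on them, so that the targets and Arntl, the gene of BMAL1, peak at opposite times of day. Of 11 genes driven through E-boxes, all tested, 4 were called lower, or 36.4%, and all 11 had a negative log2 fold change with a median of -0.57. Dbp, an output factor of the clock, stood at 45.0, 47.6 and 45.6 CPM in MRL/mpj and at 17.0, 20.4 and 20.4 CPM in MRL/lpr+MSC libraries (log2 fold change -1.25, SE 0.09, adjusted p = 0.00107). Ciart, a repressor of CLOCK and BMAL1, went from 16.3, 11.3 and 13.5 CPM to 4.88, 4.18 and 4.78 CPM (log2 fold change -1.54, SE 0.19, adjusted p = 0.00803). Bhlhe40, another repressor, fell by 0.93 on the log2 scale (adjusted p = 0.0061), and Nr1d1, the nuclear receptor REV-ERB alpha, by 0.71 (adjusted p = 0.0342). The calls of Dbp, Ciart and Bhlhe40 were stable to the omission of any library, and that of Nr1d1 stood without MRL/lpr+MSC replicate 1 and was lost without any other. Of 7 genes of the opposite phase 0 were called, all 7 had a positive value, and the median was 0.16. Arntl stood at 28.1, 28.3 and 25.9 CPM in MRL/mpj and at 32.6, 43.1 and 40.05 CPM in MRL/lpr+MSC libraries (log2 fold change 0.49, adjusted p = 0.0631). Per1 belongs to both the clock and the glucocorticoid list (log2 fold change -0.65, adjusted p = 0.0952). The time of day at which tissue was taken is not given in the sources used here.

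The promoter of Ciart is shown because it holds the E-box CACGTG 3 times, beginning 116, 58 and 44 bases before the start, in capitals below. The E-box, which reads the same on both strands, was found in 4 of 9 genes of this list with a promoter in the table and in 8.09% of all genes. The letters were not in the window of Dbp or Nr1d1.
Ciart, chr3:95882179-95882478, minus strand: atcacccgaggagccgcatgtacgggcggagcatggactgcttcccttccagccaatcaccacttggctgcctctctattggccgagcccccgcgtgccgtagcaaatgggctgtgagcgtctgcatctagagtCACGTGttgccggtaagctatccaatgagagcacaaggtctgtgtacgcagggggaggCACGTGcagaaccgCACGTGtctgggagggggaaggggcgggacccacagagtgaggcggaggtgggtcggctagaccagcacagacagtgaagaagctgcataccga
A glucocorticoid response element, searched as GAACANNNTGTNC or GNACANNNTGTTC on the other strand, was found in 2 of 17 genes of the glucocorticoid list and in 0.303% of all genes, and in none of the 5 called members with a promoter in the table.

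The libraries labelled MRL/lpr are set beside these values. The medians of MRL/lpr against MRL/mpj, which shares the MRL/mpj libraries, were -0.62 for the glucocorticoid list, with 4 members called lower, and -0.65 for the E-box list, with 5. Dbp stood at 19.2, 19.3 and 20.1 CPM and Klf9 at 171, 205 and 148 CPM in the MRL/lpr libraries, whose ranges overlap those of MRL/lpr+MSC. In the direct test of MRL/lpr+MSC against MRL/lpr the medians were -0.00 and 0.02, and for Dbp the log2 fold change was -0.02.

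**Figure D4:**
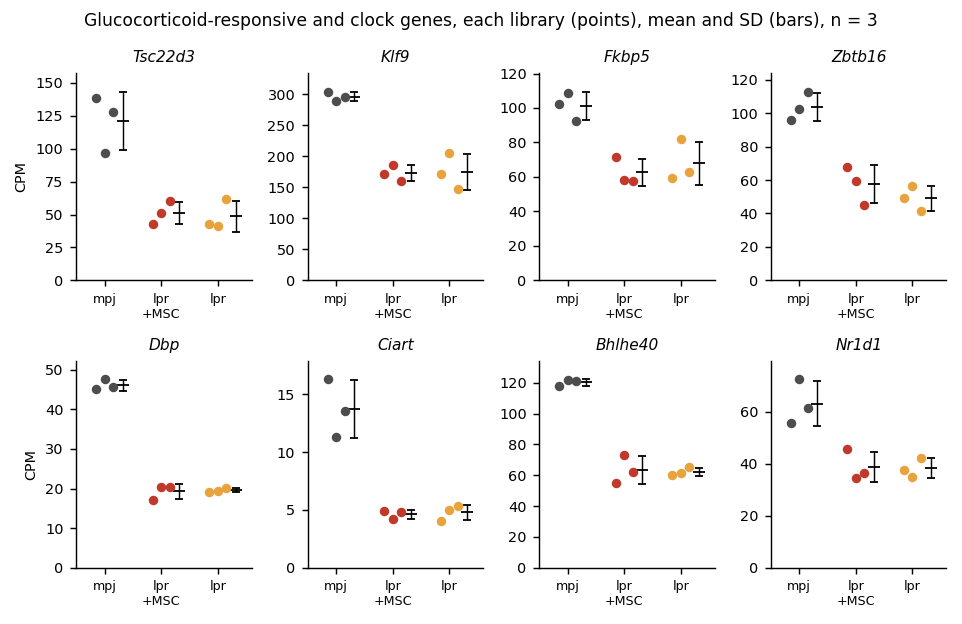
CPM of 4 glucocorticoid-responsive genes (upper row) and 4 clock genes (lower row) in each library of the MRL/mpj, MRL/lpr+MSC and MRL/lpr groups (points), with the mean and SD of the 3 libraries. The 8 genes were taken from those called lower, so that all MRL/lpr+MSC libraries lie below all MRL/mpj libraries follows from this choice. Of all genes tested, 14.4% lay wholly below. Dbp, for example, stood at 17.0 to 20.4 CPM against 45.0 to 47.6 CPM. The MRL/lpr+MSC libraries lie within or near the range of the MRL/lpr libraries.

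Single genes of endothelium and of neural stem cells and astrocytes rose with little spread between libraries. Kdr, the endothelial VEGF receptor (chr5:75932827-75978458, minus strand), stood at 14.4, 18.9 and 16.6 CPM in MRL/mpj and at 44.4, 44.1 and 44.0 CPM in MRL/lpr+MSC libraries. The log2 fold change was 1.41 (95% CI 1.17 to 1.65, adjusted p = 0.00104), and the call was stable to the omission of any library. Cldn5, the claudin of endothelial tight junctions, rose from 34.6, 34.7 and 30.9 CPM to 71.9, 59.6 and 53.2 CPM (log2 fold change 0.87, adjusted p = 0.0118), and was lost without any 1 of the MRL/mpj libraries. These were the 2 called members of 16 endothelial genes, whose median was 0.14 and whose summed level was 993 to 1139 CPM in MRL/mpj and 1092 to 1220 CPM in MRL/lpr+MSC libraries. Kdr lies in a window of 2 Mb with 3 called of 8 genes tested, the others being Scfd2 and Rasl11b. Sox2 and Sox9 are transcription factors of neural stem cells and astrocytes. Sox2 stood at 30.5, 34.3 and 29.7 CPM and at 68.2, 71.3 and 80.0 CPM (log2 fold change 1.21, adjusted p = 0.00136). Sox9 stood at 19.04, 25.5 and 19.4 CPM and at 48.1, 44.3 and 43.6 CPM (log2 fold change 1.09, adjusted p = 0.00548), and both calls were stable to the omission of any library. Sox2 and Arhgef19, a guanine nucleotide exchange factor with a log2 fold change of 1.61 (adjusted p = 0.00104), lie outside the naming rule and were named after their values were seen. Among 12 astrocyte genes tested, Sox9 was called higher and Ntsr2, a neurotensin receptor, lower (log2 fold change -0.65, adjusted p = 0.0143), with a median of -0.01.

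Of the genes tested, 5.56% of the homeostatic microglia, 11.8% of the disease-associated microglia and 0% of the complement list were called, against 3.43% of all genes. Fcrls, a surface receptor of resident microglia, fell from 18.7, 28.1 and 15.1 CPM to 6.96, 7.25 and 6.15 CPM (log2 fold change -1.58, SE 0.28, adjusted p = 0.0286) and was the 1 called member of 18 homeostatic microglia genes, whose median was -0.22. Cx3cr1, the fractalkine receptor, stood at 57.8, 56.1 and 55.7 CPM in MRL/mpj and at 42.0, 46.4 and 38.1 CPM in MRL/lpr+MSC libraries, a log2 fold change of -0.42 whose adjusted p of 0.0399 passed while its size was under 1.5-fold. On the homeostatic list 13 values were negative and 5 positive. An unadjusted p under 0.05 by limma voom was reached by 8 of 18, and by 3710 of all 16196 genes. Of the members of the homeostatic list 9 lay wholly below and 2 wholly above the MRL/mpj libraries, where 14.4% and 15.2% of all genes did so. The summed level of this list was 749 to 801 CPM in MRL/mpj and 730 to 857 CPM in MRL/lpr+MSC libraries. Of 17 disease-associated microglia genes tested of 20, Timp2, an inhibitor of metalloproteinases, rose from 127, 104 and 119 CPM to 294, 266 and 366 CPM (log2 fold change 1.40, adjusted p = 0.00325, stable to the omission of any library), and Gpnmb fell (log2 fold change -1.5, adjusted p = 0.0469). Of 16 complement genes tested of 20, 0 were called by limma voom, 0 had an unadjusted p under 0.05, and the median was 0.05. C1qa, a chain of C1q, stood at 53.1, 44.4 and 53.3 CPM in MRL/mpj and at 41.8, 50.8 and 45.1 CPM in MRL/lpr+MSC libraries (log2 fold change -0.12, adjusted p = 0.555). C3, the central component, stood at 2.6, 2.92 and 29.1 CPM and at 2.91, 13.4 and 19.2 CPM, with MRL/mpj replicate 3 the highest of the 6 (log2 fold change 0.74, adjusted p = 0.734). C1s1, the C1s protease, stood at 0.550, 0.860 and 0.545 CPM and at 0.311, 1.25 and 0.929 CPM (log2 fold change 0.18, adjusted p = 0.873), and its direction turned to -0.21 without MRL/lpr+MSC replicate 2. Tlr2, Thbs1, Fcgr2b and Cfp, with log2 fold changes of 0.91, 1.03, 0.41 and 0.28, did not pass (adjusted p of at least 0.231).

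Synaptic gene lists held almost no calls. Of all genes tested 3.43% were called, a share at which lists this short can hold 0. None of 24 presynaptic genes, 17 Nr4a, Mef2 and Creb factors, 6 NMDA receptor subunits or 9 AMPA and kainate receptor subunits tested was called by limma voom, where 1, 2, 6 and 5 had an unadjusted p under 0.05. Among all 16196 genes tested, 3710 had an unadjusted p under 0.05 by limma voom. The medians of these 4 lists were -0.16, -0.14, -0.29 and -0.11. Grin1, the obligate NMDA receptor subunit, stood at 309, 334 and 351 CPM in MRL/mpj and at 254, 245 and 233 CPM in MRL/lpr+MSC libraries, with a log2 fold change of -0.44 (adjusted p = 0.0267) that was under 1.5-fold. The nuclear receptors Nr4a1, Nr4a2 and Nr4a3, which neuronal activity induces, were at -0.43, -0.54 and -0.37 on the log2 scale (adjusted p = 0.367, 0.462 and 0.354). Nr4a1 stood at 90.4, 69.1 and 48.2 CPM in MRL/mpj and at 38.8, 59.9 and 52.5 CPM in MRL/lpr+MSC libraries, which overlapped. Mef2a, Mef2c, Mef2d and Creb3l3 had values of -0.26, -0.15, -0.13 and -0.99 (adjusted p of at least 0.21). Among 22 postsynaptic density genes Dlgap1, a scaffold, fell from 909, 937 and 933 CPM to 629, 628 and 529 CPM (log2 fold change -0.64, adjusted p = 0.0116). On that list 17 values were negative and 5 positive, and 9 had an unadjusted p under 0.05 by limma voom. Of its members 10 lay wholly below and 0 wholly above the MRL/mpj libraries, where 14.4% and 15.2% of all genes did so. Gadd45b was the 1 called member of 20 immediate early genes (log2 fold change -0.66, adjusted p = 0.0326).

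Single receptors and channels changed in both directions. Htr2c, the serotonin 2C receptor, stood at 6.5, 8.21 and 10.8 CPM in MRL/mpj and at 32.7, 73.2 and 70.1 CPM in MRL/lpr+MSC libraries (log2 fold change 2.75, SE 0.46, adjusted p = 0.0267). The call of Htr2c was made again in 1 of 6 omissions of a library. Choroid plexus epithelium also expresses Htr2c. The summed level of the 14 choroid plexus genes, none of them at 0, was 431 to 1316 CPM in MRL/mpj and 242 to 7157 CPM in MRL/lpr+MSC libraries, and it was lowest in MRL/lpr+MSC replicate 1, where Htr2c was 32.7 CPM; its part in the result was not tested. Calb2 (calretinin), a marker of thalamic cells, interneurons and immature granule neurons on 3 of the lists, stood at 6.70, 6.11 and 10.4 CPM and at 32.03, 69.5 and 104 CPM (log2 fold change 3.06, adjusted p = 0.0472). Its call too was made again in 1 of 6 omissions. The summed levels of 12 thalamic genes were 461 to 538 CPM in MRL/mpj and 489 to 806 CPM in MRL/lpr+MSC libraries, those of 14 striatal genes 262 to 292 CPM and 278 to 452 CPM, and the part of neighbouring tissue in the result was not tested. Glp1r, the receptor of glucagon-like peptide 1, stood at 0.799, 0.301 and 0.654 CPM and at 4.10, 4.32 and 5.13 CPM (log2 fold change 3.04, adjusted p = 0.0061), and Hrh1, the histamine H1 receptor, rose as well (log2 fold change 1.55, adjusted p = 0.00589); both calls were stable to the omission of any library.

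The metabotropic receptor gene Grm4, the adrenergic receptor gene Adra2a, the angiotensin receptor gene Agtr1a and the T-type calcium channel gene Cacna1g were called higher, with log2 fold changes of 1.34, 1.21, 1.98 and 1.13. These calls were made again in 2, 2, 1 and 5 of 6 omissions of a library. Atp2b4, a calcium pump of the plasma membrane, rose from 42.4, 30.02 and 37.5 CPM to 137, 172 and 227 CPM (log2 fold change 2.28, SE 0.21, adjusted p = 0.00358, stable to the omission of any library), while its paralog Atp2b1 fell by 0.66 on the log2 scale (adjusted p = 0.0326). The potassium channel genes Kcnd2 and Kcnn2 fell by 0.69 and 0.93 (adjusted p = 0.00496 and 0.00968), Itpka, which phosphorylates inositol trisphosphate in dendritic spines, by 0.62 (adjusted p = 0.011), and the nicotinic subunit gene Chrna5 by 1.22 (adjusted p = 0.0143). Of the GABA-A receptor subunits, Gabra3 was called higher and Gabra5, which is enriched in hippocampal pyramidal neurons, lower (log2 fold changes 0.80 and -0.71, adjusted p = 0.0499 and 0.0492). The neuroactive ligand-receptor list of the study had 6 members called higher and 3 lower of 36 tested of 45, and its calcium signaling list 5 and 2 of 28 tested of 29; both were chosen on these libraries and are not independent evidence.

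Markers of 2 hippocampal fields had negative values throughout. All 9 CA1 genes tested and all 10 dentate granule neuron genes had a negative log2 fold change, with medians of -0.51 and -0.45. Fibcd1, a marker of CA1, fell from 130, 147 and 153 CPM to 81.0, 92.8 and 75.1 CPM (log2 fold change -0.79, SE 0.10, adjusted p = 0.00876), and it was the 1 call of both lists. The summed level of the CA1 list was 896 to 1053 CPM in MRL/mpj and 598 to 788 CPM in MRL/lpr+MSC libraries, without overlap. The dentate sum was 765 to 1149 CPM and 482 to 804 CPM, with overlap. All 7 ependymal genes tested were positive, with a median of 1.57, 0 calls by limma voom and 4 at an unadjusted p under 0.05, and all 7 were called without MRL/lpr+MSC replicate 1. Lists of mesenchymal stromal cells (18 tested), myelin (16) and mural cells (10) had 0 calls and medians of -0.05, -0.29 and 0.01. The stromal list, which hippocampal vessels and meninges also express, summed to 1165 to 1305 CPM in MRL/mpj and 1139 to 1265 CPM in MRL/lpr+MSC libraries.

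**Figure D5:**
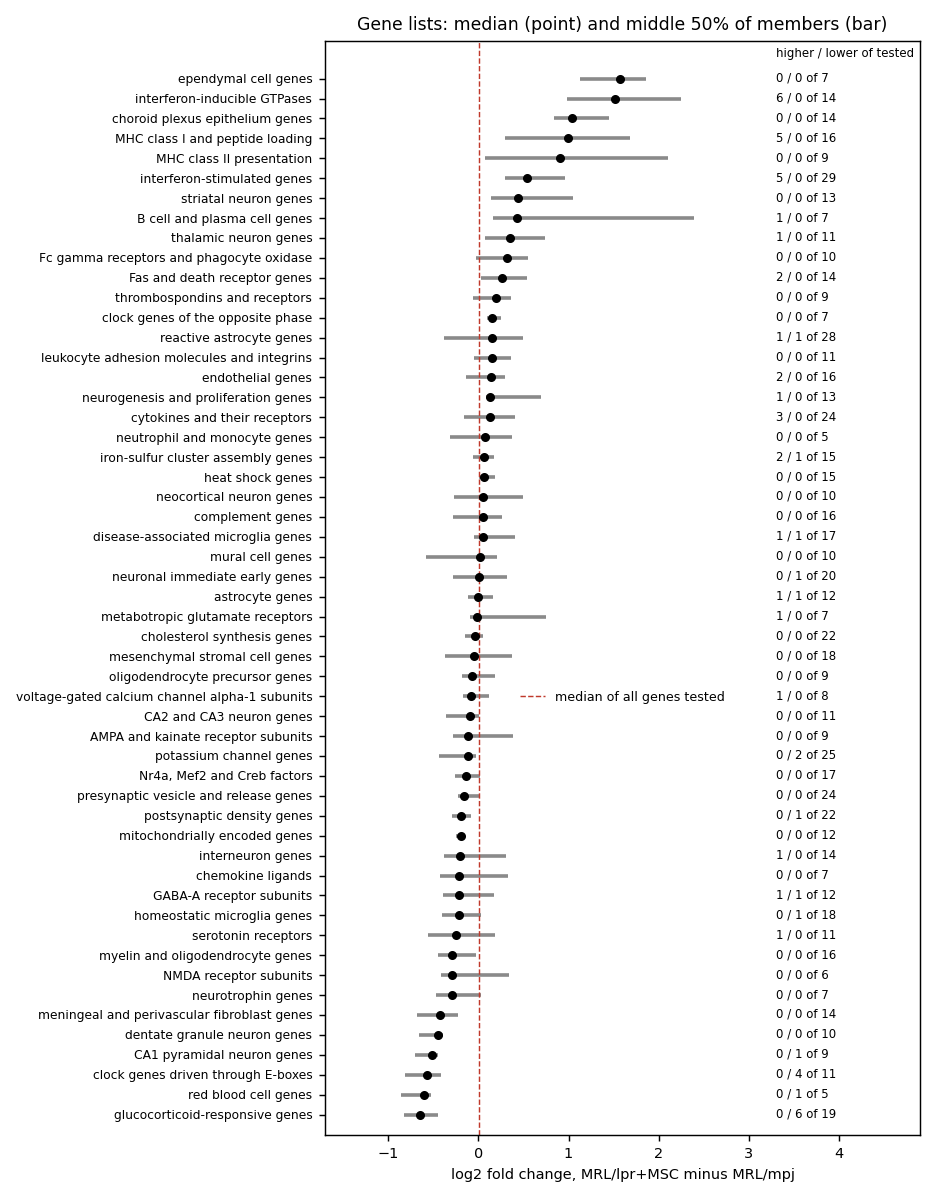
Median log2 fold change (points) and middle 50% (bars) of the members tested of each list with at least 5 of them and not taken from the study, MRL/lpr+MSC against MRL/mpj, with the number called higher and lower at the right and the median of all genes as a dashed line. Among the lists plotted, the interferon and MHC lists and the ependymal and choroid plexus lists lie highest, and the glucocorticoid, red blood cell, E-box clock and CA1 lists lie lowest.

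The changes with the lowest adjusted p were near-complete gains or losses of single transcripts. Of 401 pseudogenes tested 12.97% were called, against 3.09% of 14401 protein-coding genes, and of the 56 called genes whose log2 fold change reached 4 in either direction, 19 were pseudogenes and 28 were annotated as protein-coding. Among genes of other biotypes, the pseudogene Rps2-ps13 on chromosome X stood at 346, 313 and 342 CPM in MRL/mpj and at 1.09, 1.02 and 0.664 CPM in MRL/lpr+MSC libraries (log2 fold change -8.49, SE 0.23, adjusted p = 1.68e-05). Rps2-ps10 went the other way, from 2.45, 1.51 and 2.02 CPM to 110, 127 and 129 CPM (log2 fold change 5.96, adjusted p = 6.43e-05). The snoRNA gene Gm24598 was at 10.6, 11.4 and 9.59 CPM in MRL/mpj and at 0 in all 3 MRL/lpr+MSC libraries, which makes it at least 73.8-fold lower against a floor of 3 counts per library. Pseudogene copies share sequence with their parent genes, so reads assigned to them are uncertain. Rps2 itself was called lower, from a mean of 139 CPM to 78.9 CPM (log2 fold change -0.81, adjusted p = 0.00325). Its call was stable to the omission of any library, and the part of read assignment was not tested. In the MRL/lpr libraries Rps2-ps13 stood at 0.910, 0.819 and 0.803 CPM.

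Several of these genes lie in clusters. On chromosome 14, 5 of 10 genes tested between 6000001 and 8000000 were called, the highest share among 926 windows of 2 Mb with at least 5 genes tested, of which 592 had no call. Gm3636 there was at 0 in all MRL/mpj libraries and at 2.80, 4.09 and 3.27 CPM in MRL/lpr+MSC libraries, at least 23-fold higher, and Gm6356 was at 8.69, 4.09 and 1.80 CPM and at 0, at least 34.1-fold lower. Both bounds use the group mean, and the MRL/mpj values of Gm6356 were widely spread. The call of Gm6356 was made again in 2 of 6 omissions of a library. On distal chromosome 2, 4 of 12 genes tested between 176000001 and 178000000 were called. They include the zinc finger genes Gm14295 and Gm14305, the latter at 0.2998, 0.258 and 0.436 CPM in MRL/mpj and 16.04, 14.7 and 14.5 CPM in MRL/lpr+MSC libraries (log2 fold change 5.46, adjusted p = 0.000255). Both clusters hold near-identical copies, so the gene to which a read belongs is uncertain.

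Graded losses were measured for Isca1, Pccb and Cwc22. Isca1, which assembles iron-sulfur clusters in mitochondria (chr13:59755409-59769810, minus strand), stood at 161, 154 and 163 CPM in MRL/mpj and at 66.7, 62.5 and 56.6 CPM in MRL/lpr+MSC libraries (log2 fold change -1.36, SE 0.08, adjusted p = 0.000366). Pccb, a subunit of propionyl-CoA carboxylase, stood at 69.0, 68.2 and 72.4 CPM and at 32.4, 36.4 and 31.8 CPM (log2 fold change -1.05, adjusted p = 0.00104). Cwc22, a splicing factor, stood at 215, 133 and 247 CPM and at 17.0, 19.6 and 18.5 CPM (log2 fold change -3.38, SE 0.26, adjusted p = 0.00171). All 3 calls were stable to the omission of any library, and the MRL/lpr libraries lay at 56.8 to 62.4, 29.6 to 37.7 and 17.5 to 18.1 CPM.

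The remaining protein-coding genes of the naming rule moved at varied levels, some of them near the limit of counting in a group. Cyp11a1, which begins steroid synthesis, stood at 2.20, 2.45 and 2.12 CPM in MRL/mpj and at 0, 0.0465 and 0.133 CPM in MRL/lpr+MSC libraries. Lrat, which esterifies retinol, fell by 3.94 and Lgr6, a receptor of R-spondins, by 3.03 on the log2 scale (adjusted p = 0.00812 and 0.00255). Hbb-bt, a beta globin gene with a near-identical copy, fell by 4.10 (adjusted p = 0.00953), and Pla2g2f, a secreted phospholipase, by 2.98 (adjusted p = 0.0288). Baiap2l1 stood at 26.9, 15.4 and 29.8 CPM and at 1.04, 6.32 and 2.35 CPM (log2 fold change -3.14, adjusted p = 0.0396), and its call was lost under the omission of any library. Rec8, a cohesin of meiosis, rose by 5.92 (adjusted p = 0.0234), Slc26a9, an anion transporter, by 5.28 (adjusted p = 0.0166) and Tacr3, the neurokinin B receptor, by 3.70 (adjusted p = 0.0238). The calls of Rec8, Slc26a9, Tacr3 and AK157302 were made again in 2 of 6 omissions of a library and that of Pla2g2f in 1. Without MRL/mpj replicate 2 the value of Rec8 was 6.47, that of Slc26a9 4.52 and that of Tacr3 4.42, and without MRL/lpr+MSC replicate 1 that of Pla2g2f was -2.28. Without MRL/lpr+MSC replicate 3 the values of Cyp11a1 and Lrat were -5.76 and -4.58, and without MRL/lpr+MSC replicate 2 that of Hbb-bt was -4.77, each still called. Hmga1b rose from 0.550, 0.516 and 0.218 CPM to 20.8, 18.4 and 22.4 CPM (log2 fold change 5.58, adjusted p = 0.00053). Its namesake Hmga1 on chromosome 17 was called lower, and the part of read assignment between them was not tested. AK157302 rose from 0.749, 13.2 and 0.817 CPM to 62.8, 58.7 and 56.5 CPM, a log2 fold change of 4.73 that was 6.18 without MRL/mpj replicate 2.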

How the data were processed

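Hippocampal RNA was sequenced from 9 libraries, and the 3 labelled MRL/lpr+MSC were compared with the 3 MRL/mpj libraries. The authors aligned reads with STAR to mm10 (GRCm38) and counted them per gene with HTSeq, while the labels name TopHat2, and tested with DESeq2 after voom normalization; strandedness is not given in the sources used here, and the labels and the methods give different amounts of input RNA. The deposited matrix holds raw counts of 47643 genes, 47224 of which matched the GENCODE annotation. The deposited FPKM values, which the authors made from these counts, were set against the counts to see whether a library's table and matrix column belong together (12235 genes). Of the columns of values per sample, 0 had no sample.

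Counts were scaled by TMM (trimming 30% of log ratios and 5% of levels). A gene entered the test if its total count reached 15 and if 3 or more libraries had the CPM that equals 10 counts at the median library size. Two-sided tests by limma voom used robust moderation of the variances (R 4.3.3 with limma 3.58.1 and statmod 1.5.0) with p-values adjusted by the Benjamini-Hochberg method over every gene in the fit, and the code was tested on simulated data. Count models such as the planned quasi-likelihood test were not run. A gene at 0 in a group got a lower bound at 3 counts per library. Lists were described by counts and medians, with no set test; members and lists were chosen with earlier results of these data known. The genes named are Fas, genes the study names, the largest and most significant changes (12 and 12 protein-coding, 4 and 4 of other biotypes, and the 6 lowest adjusted p in each direction), and called members of lists, printed where results turn on them. Total counts ranged from 19475804 to 24114666 over the 6 libraries. Alternatives were median-of-ratios scaling, other filters, limma-trend, a test against 1.5-fold, all 9 libraries in 1 fit, the replicate block, quality weights, moderation without the robust option, and each library left out. Promoters came from RefSeq (GRCm38.p6). A few items are left out of the text.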

Additional observations from a re-analysis of the deposited data

How the results depend on the processing

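Against 556 genes called (313 higher, 243 lower) and 206 past a log2 fold change of 1.5, library quality weights gave 1177 (801 and 376) and 396, the replicate block 280 (154 and 126) and 126, and a test against a 1.5-fold change 100 (50 and 50) and 89. A filter at a mean of 1 CPM gave 126 genes past a log2 fold change of 1.5. Leaving out 1 library at a time gave 193 to 1514 genes called (82 to 1091 higher, 100 to 423 lower) and 100 to 600 past 1.5; of the 556, 525 were called again without MRL/lpr+MSC replicate 1 and 181 without MRL/mpj replicate 1. MRL/lpr against MRL/mpj, with 967 called, gave 2065 with quality weights, 104 against a 1.5-fold change and 165 to 1695 with 1 library left out. The cause of these differences was not tested, except that leaving out a library lowers the number of samples. The test of MRL/lpr+MSC against MRL/lpr called 0 genes in each setting listed in processing.

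Same-numbered libraries of the 2 groups correlated at r = -0.102, 0.106 and 0.0979 in their deviations from the group means. MRL/mpj replicate 1 correlated better with MRL/lpr+MSC replicate 2 (0.0891), so the numbers were not taken to pair the mice. With the replicate block, 1 interferon-stimulated gene, 1 GTPase, 0 class I genes, 3 glucocorticoid-responsive genes and 3 E-box clock genes were called. With all 9 libraries in 1 fit, these counts were 2, 0, 0, 6 and 4.

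No gene that was called and is named changed direction under these settings. Of the genes not called, Ttr (log2 fold change 0.65) lay between -0.93 (MRL/lpr+MSC replicate 2 left out) and 2.12 and also turned to -0.07 when MRL/mpj replicate 1 was omitted, and C1s1 (0.18) lay between -0.21 and 0.72, both turning with MRL/lpr+MSC replicate 2, and C1s1 fell to just under 0 with replicate 3 omitted. Prkcd of thalamic neurons (-0.38) lay between -1.08 and 0.70, turning when MRL/lpr+MSC replicate 1 was omitted, and was 0.28 with quality weights; Apoa1 (-1.52) lay between -3.23 and 0.29, turning when MRL/mpj replicate 3 was omitted. The median of the choroid plexus list lay between -0.04 and 2.33 with 1 library left out. The cause was not tested. With 3 libraries a group, a missed threshold does not show that a gene did not differ. Count models were not run. As labelled, MRL/lpr+MSC and MRL/mpj mice differ in the Fas allele and in treatment together. Differences at other loci were not tested, and whether the label of the treatment holds was not settled.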
